A study of Mus musculus with 6 samples.

Results

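The FOS, JUN and EGR families are groups of DNA-binding transcription factors, and many of their genes are immediate early genes, which cells switch on shortly after a growth or stress signal without first making new protein. 10 of these genes were examined in cultured mouse skin cells kept in high or normal glucose, namely Fos, Fosb, Fosl1 and Fosl2, Jun, Junb and Jund, and Egr1, Egr2 and Egr3. They form a set list from the 3 families, and Egr4, also an EGR gene, is not on it. They are 10 of the 55487 genes in the deposited count table, and all 10 passed the filter on low counts that left 19015 genes for testing.

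Primary cells were isolated from the skin of C57BL/6 mice, with 4 to 6 mice aged 2 to 3 months used for an isolation, and were enriched on magnetic beads against CD31, a surface protein of endothelial cells (ECs). The cultures then received medium with normal glucose (5 mmol/L, 3 samples) or high glucose (20 mmol/L, 3 samples) for 48 hours, and polyadenylated RNA was sequenced in bulk. The study used this comparison to ask which genes differ in ECs under a glucose level that mimics diabetes. How far the samples carry endothelial markers is described below. Normal glucose replicate 1 held 120192466 counts, replicate 2 held 135253663 and replicate 3 held 124212369, and the high glucose replicates held 146881356, 121930179 and 139967043. No culture with an osmotic control sugar is among the samples, so glucose itself and the raised osmolarity of the medium cannot be told apart. The figure legends of the study count 3 mice per group, while the labels describe an isolation from several mice and do not tie a sample to an animal or culture. P values therefore measure the spread between these samples, and how much of it lies between animals is not known. The labels name TRIzol and the DNBSeq platform, whereas the methods of the study name a QIAGEN kit and the HiSeq.

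FOS proteins pair with JUN proteins to form AP-1, a leucine zipper dimer that binds short DNA elements, and JUN proteins can also pair with one another. EGR proteins bind GC-rich elements through zinc fingers and are held in check by the co-repressors NAB1 and NAB2. Both groups are classic readouts of the RAS, RAF, MEK and ERK kinase cascade and of the serum response factor SRF, and in the vessel wall and skin they are known for their part in growth, matrix turnover and wound repair.

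The label of the cells was set against marker genes before any result. Pecam1, which encodes CD31, had 12 to 19 counts in each normal glucose sample and 9 to 18 in each high glucose sample, or a mean of 0.128 and 0.103 normalized CPM (CPM, the count rescaled to a common library total). Of 20 endothelial markers, 13 passed the filter, Sox17 was at 0 in all 6 samples, and Tie1, Cldn5, Robo4, Emcn, Sox18 and Lyve1 were among those with too few counts to test. Eng, which fibroblasts also express, was the most abundant endothelial marker, and the list took up 0.0230%, 0.0250% and 0.0256% of all counts in normal glucose against 0.0199%, 0.0192% and 0.0199% in high glucose. The 14 fibroblast markers, led by Col3a1, held 4.38%, 4.09% and 4.35% in normal glucose against 7.17%, 7.31% and 6.90% in high glucose. Other endothelial markers were measured clearly, with Flt1 at 55.3 ± 2.06 normalized CPM in normal glucose against 38.4 ± 0.154 in high glucose, Cdh5, the gene of VE-cadherin, at 1.80 ± 0.0797 and 0.876 ± 0.0806, and Plvap at 4.51 ± 0.349 and 6.14 ± 0.426 (SD, n = 3). Some endothelial transcripts were thus near 0 and others were present, fibroblast collagens were abundant, and the samples are called skin cell cultures here. In bulk RNA, fewer cells of a type and less RNA per cell cannot be told apart.

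RefSeq promoter entries (GRCm38.p6, 250 bases before to 50 after a start site) were matched for 7 of the 10 genes, Fos, Fosb, Fosl2, Jun, Junb, Jund and Egr2, and none was used for Fosl1, Egr1 and Egr3. They were searched for the elements through which these families are known to be regulated, on both strands except for the TATA box, which was read on the strand of the gene. The CArG box bound by SRF was found in 0 of the 7 entries and in 1.63% of all 32851 promoters of the same length, TGACGTCA in 0 of 7 and 1.79%, and the AP-1 element TGANTCA in 0 of 7 and 7.81%. The longer AP-1 element TGACATCA was found in Jun alone (3.62% of all promoters), the EGR element GCGNGGGCG in Fosb and Fosl2 (5.55%), and TATAAA in Fos and Junb (8.32%). Bases outside these 7 entries were not searched, so 0 of 7 does not mean that a gene lacks the element. A CArG box can contain the letters of a TATA box, and the other motifs do not contain one another. With the start site counted as 0, the Fos match runs from -33 to -28, the Junb match from 0 to 5, the Jun match from -45 to -38, the Fosb match from -50 to -42 and the Fosl2 match from -79 to -71. The Fosl2 entry lies inside the first exon of a longer gene model, so its bases are not shown, and the Junb and Jund entries belong to start sites upstream of the gene models, so the Junb match too lies before the first exon. For the other genes with an entry that passed the test between the glucose groups, the 150 bases before the first exon follow in the direction of transcription, with matches in capitals. That of Fos is chr12:85473740-85473889 on the plus strand, outside annotated genes, that of Jun is chr4:95052223-95052372 on the minus strand, within an intron of the antisense gene Junos, and that of Egr2 is chr10:67535325-67535474 on the plus strand, upstream of the gene.
Fos: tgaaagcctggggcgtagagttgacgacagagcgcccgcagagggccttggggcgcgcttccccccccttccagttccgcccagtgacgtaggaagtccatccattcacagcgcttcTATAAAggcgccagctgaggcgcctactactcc
Jun: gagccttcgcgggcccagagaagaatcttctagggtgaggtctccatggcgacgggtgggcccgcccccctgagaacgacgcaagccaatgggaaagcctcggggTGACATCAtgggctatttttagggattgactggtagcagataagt
Egr2: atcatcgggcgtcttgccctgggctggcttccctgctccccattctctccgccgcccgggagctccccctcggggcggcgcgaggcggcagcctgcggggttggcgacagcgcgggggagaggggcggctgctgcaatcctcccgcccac
Of these stretches, 62.7% of the Fos bases, 58.0% of the Jun bases and 75.3% of the Egr2 bases are G or C. A match to these letters describes the sequence and is no measure of binding.

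Groups were compared with the quasi-likelihood test of edgeR, and a gene was called when its P value, adjusted by Benjamini-Hochberg over all tested genes, was below 0.05. By this rule 3 of the 10 genes were lower in high glucose, Fos, Egr2 and Egr3, where 14.5% of all tested genes were lower. Fosl2 and Jun were higher, 2 of 10, where 16.9% of all tested genes were higher. Fosb, Fosl1, Junb, Jund and Egr1 did not pass the threshold. The normalized CPM of the groups did not overlap for the 5 called genes and overlapped for the other 5, against 46.4% of tested genes with no overlap. The median log2 fold change was 0.04 for the 10 genes and 0.01 for all tested genes. Each family held members that were called and members that were not, and the FOS family held a called member in each direction. Scaling by library size alone shifted the median of all genes by -0.11 on the log2 scale, with 72.9% of calls lower in place of 46.2%, and left Jun short of the threshold, so small changes are to be read relative to that shift.

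**Figure D1:**
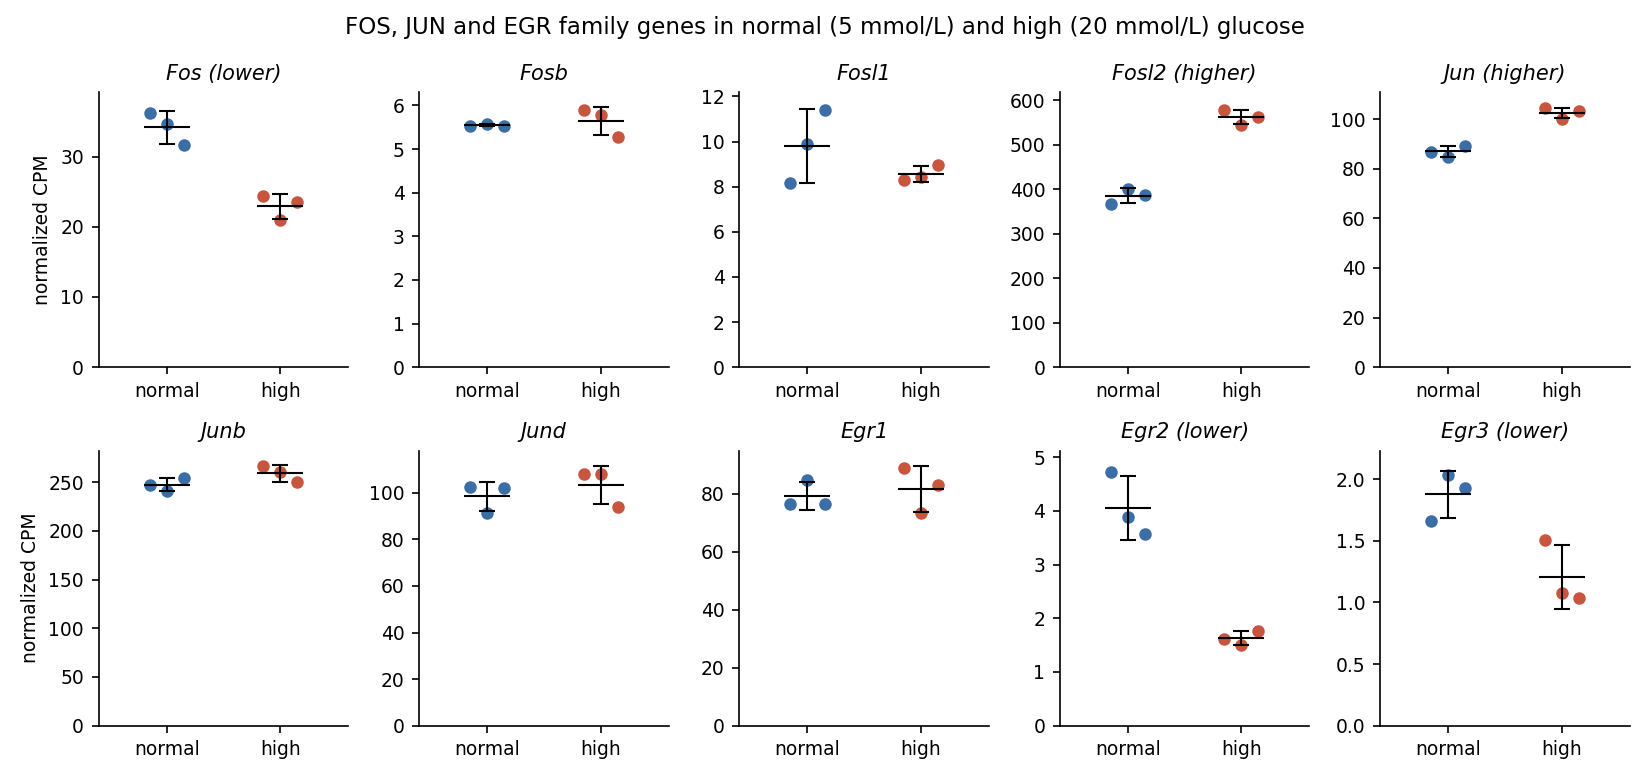
Normalized CPM (vertical axes, each from 0) of the 10 genes in the 3 normal glucose samples (blue points) and the 3 high glucose samples (red points), with the mean and SD in black and the direction of a call beside the name. The groups stand apart for Fos, Fosl2, Jun, Egr2 and Egr3, and they overlap for the other 5 genes.

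Fos encodes c-FOS, the founding member of its family, and its transcript and protein are short-lived. The gene (ENSMUSG00000021250) lies at chr12:85473890-85477273 on the plus strand of GRCm38. Fos stood at 36.2, 34.7 and 31.6 normalized CPM in normal glucose against 24.3, 20.9 and 23.6 in high glucose. The lowest normal glucose sample was above the highest high glucose sample, and the samples of a group differed by at most 1.16 times. The mean was 34.2 ± 2.36 CPM in normal glucose against 22.9 ± 1.77 in high glucose (SD, n = 3), and the log2 fold change was -0.58 (SE 0.0726, edgeR adjusted P = 0.00019), or -32.9%. Fos was lower in 3 of 3 high glucose samples and kept its call in all 19 alternative settings tried except a minimum absolute log2 fold change of 1.

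Fosl2 encodes FRA-2, a FOS protein without the strong activation domain of c-FOS that is known from skin, bone and fibrotic tissue. It is at chr5:32135801-32157842 on the plus strand (ENSMUSG00000029135). Its counts were the highest of the 10 genes, with 367, 401 and 386 normalized CPM in normal glucose against 578, 545 and 562 in high glucose. Every high glucose sample lay above every normal glucose sample. The log2 fold change was 0.55 (SE 0.0537, edgeR adjusted P = 3.33e-05), from 385 ± 16.9 to 562 ± 16.5 CPM (SD, n = 3), or 46.0% more. Fosl2 and Fos thus moved in opposite directions within 1 family, and both directions held under each scaling tried. The ratio of Fosl2 to Fos, both per kb of exon, was 2.46, 2.81 and 2.97 in normal glucose against 5.78, 6.32 and 5.80 in high glucose, and the mean ratio was 2.17 times as high.

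Fosb encodes FOSB and, by alternative splicing, the shorter and more stable form ΔFOSB, which gene-level counts cannot separate. The gene (ENSMUSG00000003545) is at chr7:19302696-19310051 on the minus strand and was low, at 5.54, 5.58 and 5.54 normalized CPM in normal glucose against 5.89, 5.78 and 5.28 in high glucose. The groups overlapped, with a log2 fold change of 0.03 (SE 0.0812, edgeR adjusted P = 0.845). Fosl1, which encodes FRA-1, a FOS protein linked to cell migration, is at chr19:5447547-5455946 on the plus strand (ENSMUSG00000024912). It had 8.15, 9.88 and 11.4 normalized CPM in normal glucose against 8.30, 8.45 and 8.94 in high glucose, and the log2 fold change was -0.20 (SE 0.112, edgeR adjusted P = 0.209). Normal glucose replicate 1 lay below the high glucose samples, while the other two normal glucose samples lay above them. Without that replicate, Fosl1 was called lower, with a log2 fold change of -0.33 (edgeR adjusted P = 0.00973), and its adjusted P value ran from 0.00973 to 0.594 over all alternatives. Of the exon positions of Fosl1, 1163 bp (57.2%) are shared with Ccdc85b on the opposite strand, and nothing states that reads were assigned by strand, so reads of the pair cannot be told apart. Ccdc85b had a log2 fold change of -0.07 (edgeR adjusted P = 0.556).

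Levels were compared between genes per kb of exon. Fosl2 made up 65.1%, 66.9% and 66.7% of the FOS family in normal glucose against 79.5%, 80.1% and 79.2% in high glucose. The share of Fos was 26.4%, 23.8% and 22.5% in normal glucose against 13.8%, 12.7% and 13.7% in high glucose. In both groups Fosl2 was the most abundant FOS transcript, Fos the next and Fosb the least abundant, and the lead of Fosl2 was larger in high glucose. Fosl1 held 8.04 ± 1.26% and 5.78 ± 0.299% of the family and Fosb 1.48 ± 0.0389% and 1.24 ± 0.0825% (SD, n = 3), without overlap between the groups. These shares sum to the whole, so a larger share of Fosl2 lowers the others. The counts of Fosl1, and so its share and the family sum, may hold reads of Ccdc85b. The summed FOS level was 60.0 ± 1.84 CPM per kb in normal glucose against 72.9 ± 2.42 in high glucose, with no overlap, and 62.4 ± 2.23 and 70.1 ± 2.78 under library size scaling, again with no overlap (exact two-sided permutation p = 0.1 in both cases, the smallest that 3 samples against 3 can give).

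**Figure D2:**
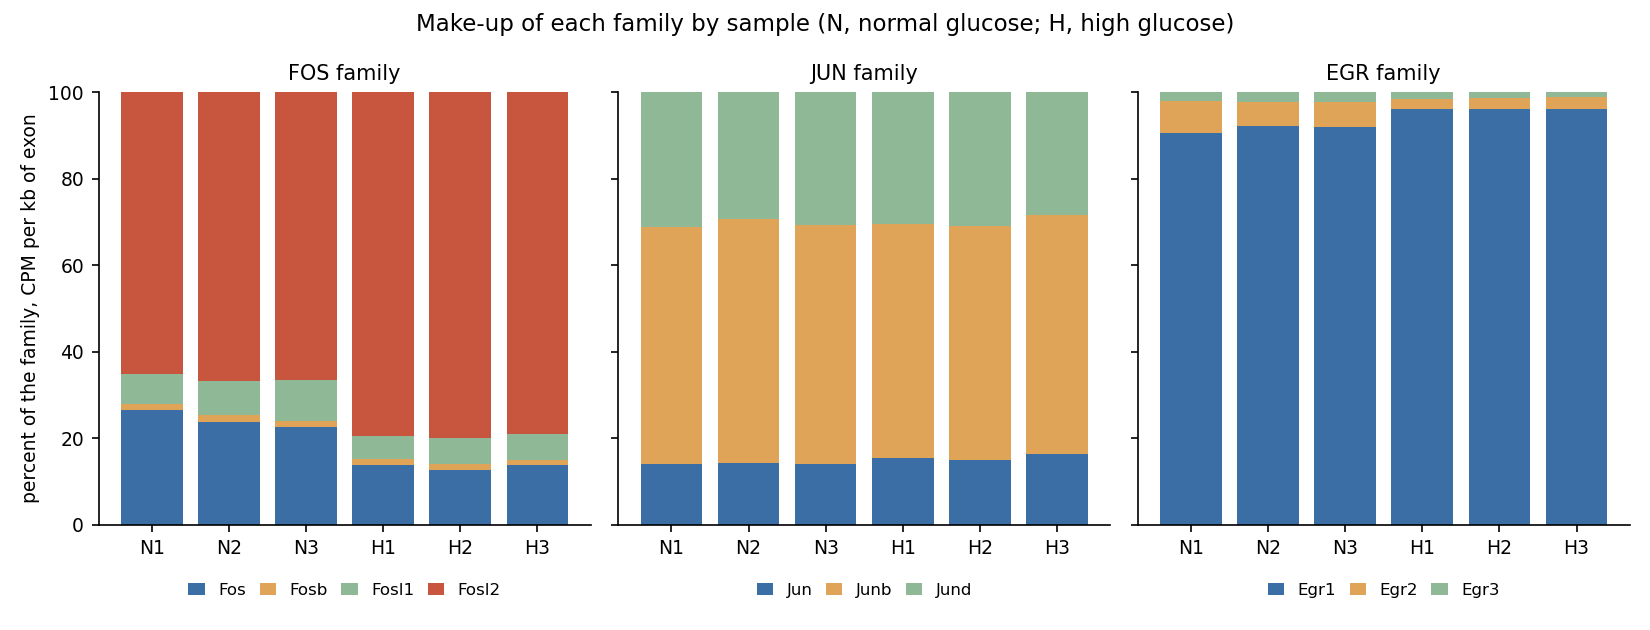
Percent of each family's summed CPM per kb of exon (vertical axis) that each member holds in each sample, with normal glucose samples as N1 to N3 and high glucose samples as H1 to H3. Fosl2 holds 65.1% to 66.9% of the FOS family in normal glucose against 79.2% to 80.1% in high glucose, the JUN family keeps Junb as its largest member, and Egr1 holds over 90% of the EGR family in every sample.

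Jun encodes c-JUN, the AP-1 subunit activated by JNK kinases, and is a gene without introns. It lies at chr4:95049034-95052222 on the minus strand (ENSMUSG00000052684). Jun had 86.9, 84.9 and 89.0 normalized CPM in normal glucose against 104, 100 and 103 in high glucose. The groups did not overlap, and each group spanned at most 1.05 times. The log2 fold change was 0.24 (SE 0.0488, edgeR adjusted P = 0.00421), or 17.9% more, the smallest change among the called members. Under library size scaling it was 0.12 with an adjusted P value of 0.0697, the one alternative fit in which Jun missed the threshold, against a range of 0.000463 to 0.0697 over all alternatives. Jun shares 232 bp of exon with the antisense gene Junos, whose 1.78 ± 0.252 and 1.84 ± 0.236 normalized CPM (SD, n = 3) were far below those of Jun.

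Junb and Jund encode the other JUN proteins, of which JUNB is often a weaker activator than c-JUN and JUND is produced more steadily than other immediate early genes. Junb (ENSMUSG00000052837, chr8:84974484-84978718, minus strand) had 248, 241 and 254 normalized CPM in normal glucose against 267, 260 and 250 in high glucose. Its log2 fold change was 0.07 (SE 0.0509, edgeR adjusted P = 0.357), and 1 high glucose sample lay within the range of the normal glucose samples. Jund (ENSMUSG00000071076, chr8:70698949-70700616, plus strand) had 102, 91.4 and 102 normalized CPM in normal glucose against 108, 108 and 93.8 in high glucose. Jund overlapped too, with a log2 fold change of 0.07 (SE 0.0710, edgeR adjusted P = 0.511). Both fold changes were below 0 under library size scaling, at -0.05 for each, again short of the threshold. Junb shares 173 bp of exon with Prdx2 and Jund shares 877 bp with Gm11175, each on the opposite strand, and neither partner was called (edgeR adjusted P = 0.137 and 0.806).

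Per kb of exon, Junb was the most abundant of all 10 genes, with 108 ± 2.78 CPM per kb in normal glucose against 113 ± 3.78 in high glucose (SD, n = 3). Jund followed with 59.1 ± 3.73 and 61.9 ± 4.95, then Fosl2 with 39.8 ± 1.74 and 58.0 ± 1.71, and then Jun with 27.3 ± 0.642 and 32.1 ± 0.647. In high glucose Jund and Fosl2, neighbours in this order, differed by less than the SD of Jund and by more than that of Fosl2, while in normal glucose they were further apart. Junb held 55.5 ± 0.725% of the JUN family in normal glucose against 54.5 ± 0.517% in high glucose, and Jun 14.1 ± 0.210% and 15.6 ± 0.730%. Only the share of Jun, among the 3 JUN genes, did not overlap between the groups. The summed JUN level overlapped between groups, at 194 ± 6.89 and 207 ± 8.59 CPM per kb, and at 202 ± 5.63 and 199 ± 8.31 under library size scaling. Of the pooled FOS and JUN transcripts, Fosl2 held 15.7 ± 0.922% in normal glucose against 20.8 ± 0.677% in high glucose, and Fos held 5.73 ± 0.475% and 3.49 ± 0.272%.

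Egr1 encodes the most studied EGR factor, induced in vessels by injury and growth factors. The gene (ENSMUSG00000038418) is on chromosome 18 from 34859823 to 34864984. Egr1 had 76.6, 84.7 and 76.5 normalized CPM in normal glucose against 88.8, 73.3 and 83.1 in high glucose. The groups overlapped throughout, with the highest and the lowest of the 6 values both in high glucose. The log2 fold change was 0.04 (SE 0.0752, edgeR adjusted P = 0.694), and it was -0.07 under library size scaling, also short of the threshold.

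Egr2, also known as Krox20, encodes the EGR factor that drives myelination in Schwann cells and takes part in fibroblast and immune cell responses. It lies at chr10:67535475-67542188 on the plus strand (ENSMUSG00000037868). Egr2 had 4.72, 3.88 and 3.57 normalized CPM in normal glucose, from 457 to 591 counts a sample, and 1.62, 1.50 and 1.77 in high glucose, from 174 to 238 counts. No high glucose sample reached the level of a normal glucose sample. The log2 fold change of -1.32 (SE 0.128, edgeR adjusted P = 3.1e-05) was the largest change among the 10 genes, and it passed in all 19 alternatives, from -1.43 to -1.21.

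Egr3 encodes an EGR factor that is induced in endothelial and immune cells and in muscle spindles. It is at chr14:70077203-70082614 on the plus strand (ENSMUSG00000033730) and was the least abundant of the 10 genes per kb. Egr3 had 1.66, 2.04 and 1.93 normalized CPM in normal glucose against 1.51, 1.07 and 1.04 in high glucose, from 125 to 289 counts a sample. High glucose replicate 1 came close to normal glucose replicate 1, and the groups did not overlap. The log2 fold change was -0.63 (SE 0.162, edgeR adjusted P = 0.0136). This call rested on the high glucose samples kept, since the log2 fold change was -0.57 without high glucose replicate 2 (edgeR adjusted P = 0.0517) and -0.55 without replicate 3 (edgeR adjusted P = 0.0562). Over all alternatives the adjusted P value ran from 0.00264 to 0.0562.

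Egr1 made up 91.6 ± 0.834% of the EGR family per kb in normal glucose against 96.0 ± 0.0522% in high glucose (SD, n = 3). The share of Egr2 was 7.37%, 5.58% and 5.66% in normal glucose against 2.31%, 2.59% and 2.69% in high glucose. Egr1 therefore stood at 15.0 ± 2.36 times the level of Egr2 in normal glucose and at 38.1 ± 3.05 times in high glucose. Egr2 stood at 2.85 ± 0.722 and 1.80 ± 0.405 times the level of Egr3. The summed EGR level, carried by Egr1, overlapped between groups at 19.3 ± 1.05 and 19.0 ± 1.83 CPM per kb. Egr4, the EGR gene outside the 10, had 0 counts in all 6 samples, and a floor of 3 counts corresponded to 0.0211 to 0.0258 CPM. The co-repressor gene Nab2, itself a target of EGR factors, fell by 0.27 on the log2 scale (SE 0.0576, edgeR adjusted P = 0.0052), with 126, 121 and 136 normalized CPM in normal glucose against 109, 103 and 105 in high glucose. Nab1 had a log2 fold change of 0.07 (edgeR adjusted P = 0.343).

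**Figure D3:**
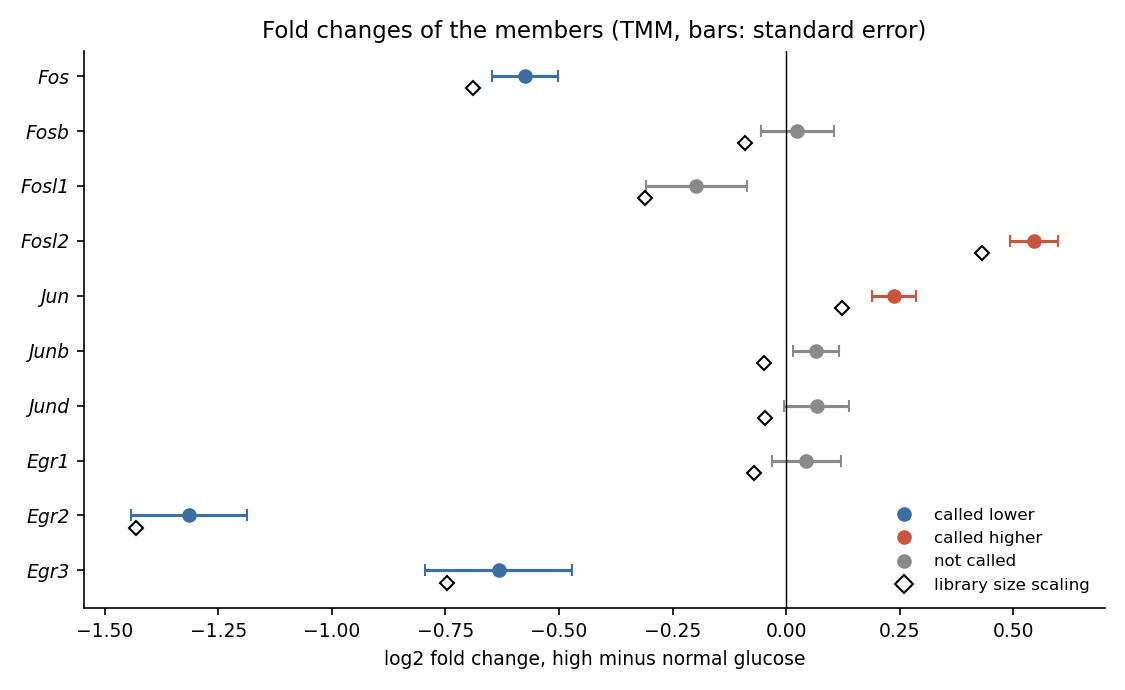
Log2 fold changes of the 10 genes, high minus normal glucose (horizontal axis), with TMM scaling as filled points with standard errors and with library size scaling as open diamonds. Fos, Egr2 and Egr3 lie below 0 and Fosl2 and Jun above 0 under both scalings, Jun being uncalled under library size scaling, while Fosb, Junb, Jund and Egr1 change sign between them and are called under neither.

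The other immediate early genes formed a list of 48, of which 45 were tested. In high glucose 18 of these were lower (40.0%) and 14 were higher (31.1%), with a median log2 fold change of -0.11, against 14.5% lower, 16.9% higher and a median of 0.01 over all tested genes. Library size scaling gave 25 lower and 10 higher, so this balance depends on the scaling. Plk2, a polo-like kinase gene, fell from 56.8 ± 2.40 to 28.4 ± 1.06 normalized CPM (SD, n = 3), its relative Plk3 fell by 0.83 on the log2 scale, and Ereg, which encodes the growth factor epiregulin, fell by 0.74. The pseudokinase gene Trib1 rose by 0.68 and the stress genes Gadd45b and Gadd45g by 0.61 and 0.51. Calls in both directions were thus present in this wider group, as in the 10 members. Atf3, which encodes a dimer partner of JUN, did not pass at -0.17 (edgeR adjusted P = 0.138), but did at -0.24 without normal glucose replicate 2 (edgeR adjusted P = 0.0367) and at -0.28 under library size scaling. Of 16 tested genes for other AP-1 partners of the bZIP class, 1 was lower, Batf2, which was named after its value was seen (-0.69), and 3 were higher, among them Creb1 and Atf7 at 0.28 and 0.40. These 2 were not called under library size scaling, at 0.16 and 0.29, or without the filter. Creb1 also lost its call without normal glucose replicate 3 or any 1 high glucose sample (0.21 to 0.29), and Atf7 without normal glucose replicate 3 or high glucose replicate 1 or 3 (0.37 to 0.41).

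Upstream of these genes, 26 genes for RAS, RAF, MEK, ERK, JNK and p38 kinases and for SRF cofactors were all tested, and 2 were lower (7.69%, against 14.5% of all tested genes) and 6 higher (23.1%, against 16.9%), with a median log2 fold change of 0.02. With 1 sample left out, 1 to 4 were lower and 3 to 6 higher. Nras and Map2k1, which encodes MEK1, fell by 0.37 and 0.22 on the log2 scale, although Map2k1 was not called without high glucose replicate 3 (-0.21). Braf rose by 0.46, and Mrtfb, which encodes an SRF cofactor, rose by 0.30. Mrtfb lost its call without normal glucose replicate 3 or any 1 high glucose sample (0.26 to 0.31), without the filter, under upper quartile and library size scaling (0.26 and 0.19) and with the GC and length trend removed (0.15). Library size scaling changed this split to 8 lower and 2 higher, so the balance of directions in this list depends on the scaling. Srf itself rose by 0.22 (edgeR adjusted P = 0.0395), was not called under any of the other scalings (0.10 to 0.21), without the filter, with halved counts or with the replicate block, and lost its call when any 1 sample other than normal glucose replicate 3 was left out (0.13 to 0.23). The ternary complex factor genes, which sit with SRF on immediate early promoters, were Elk1 at 0.17 (edgeR adjusted P = 0.0384), Elk3 at -0.09 (0.183) and Elk4 at -0.06 (0.715). Elk1 was not called under any of the other scalings (0.05 to 0.15), with DESeq2, without the filter, with halved counts or with the replicate block, nor when any 1 sample other than normal glucose replicate 2 was left out (0.12 to 0.17). Elk3 was called lower without normal glucose replicate 1 (-0.13), under library size scaling (-0.21) and with the GC and length trend removed (-0.12).

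A second list held 12 genes that ERK signalling is known to induce, and here the calls ran in 1 direction. Of the 12, 11 were lower in high glucose (91.7%, against 14.5% of all tested genes) and 0 were higher (against 16.9%), with a median log2 fold change of -0.61 (the 1 other gene being Spred2 at -0.15), and library size scaling left 12 lower and 0 higher. Etv4, which encodes an ETS factor, had 9.61, 10.1 and 10.0 normalized CPM in normal glucose against 2.09, 1.90 and 1.75 in high glucose, and the log2 fold change was -2.37 (SE 0.0930, edgeR adjusted P = 6.92e-08). The ERK phosphatase genes Dusp6 and Dusp4 fell by 1.36 and 1.20 on the log2 scale. Spred3, Spred1 and Phlda1 fell by 0.52, 0.24 and 0.18. The call of Spred1 was lost without high glucose replicate 1 or 3 (-0.25 to -0.23), and that of Phlda1 without normal glucose replicate 3 or high glucose replicate 2 or 3 (-0.20 to -0.16). Among the 10 members, Fos, Egr2 and Egr3 had the same direction as these genes, and Fosl2 and Jun the opposite one. The difference between these 2 lists was not tested.

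Among 20 genes that AP-1 is known to regulate, all were tested, and 15 were lower (75.0%, against 14.5% of all tested genes) and 2 higher (10.0%, against 16.9%), with a median log2 fold change of -0.76. The protease gene Mmp10, the cyclin gene Ccnd1 and Ptgs2, which encodes cyclooxygenase 2, fell by 1.75, 1.40 and 1.28 on the log2 scale, and Lif fell by 0.39. Il6 and Timp1 rose by 1.34 and 0.30. Fos was lower, as were most of these genes, while Fosl2 and Jun were higher. The list was chosen with earlier results of these data known. Whether any FOS or JUN gene had a part in these directions was not tested, and whether AP-1 was bound to any listed gene was not measured. Of 16 genes known as EGR targets, 14 were tested, and 4 were lower and 4 higher (28.6% each, against 14.5% and 16.9% of all tested genes) with a median of 0.05. Id4, Cdkn1a and Flt1 fell by 1.10, 0.73 and 0.53, and F3, Gadd45a and Fgf2 rose by 0.39, 0.37 and 0.33. Flt1 is also on the endothelial list.

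**Figure D4:**
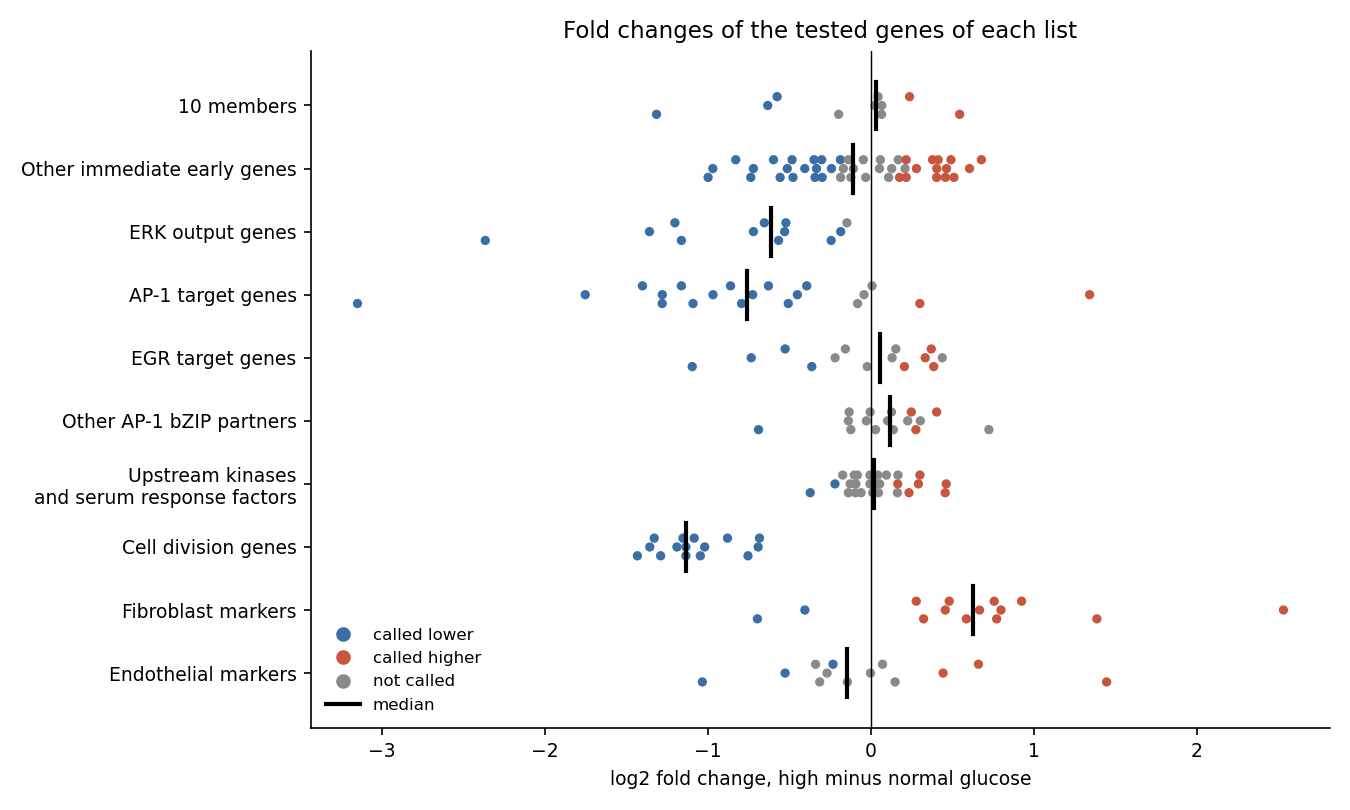
Log2 fold change, high minus normal glucose (horizontal axis), of each tested gene of the named lists, coloured by call, with the median of the list as a black bar. The median is 0.04 for the 10 members and -0.11 for other immediate early genes, and it is -0.61 for ERK output genes, -0.76 for AP-1 targets, -1.14 for cell division genes and 0.63 for fibroblast markers; the balance of calls among the upstream kinases changes under library size scaling.

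Other markers differed between the groups beside these genes. All 15 cell division genes fell, with a median log2 fold change of -1.14, among them Ccnb2 by 1.43, Birc5 by 1.36 and Mki67 by 0.75, and the list held 0.0330%, 0.0340% and 0.0331% of all counts in normal glucose against 0.0154%, 0.0156% and 0.0154% in high glucose, led by Top2a. Of the 14 fibroblast markers, 12 rose and 2 fell, with a median of 0.63. Pi16 rose by 2.53 and Col3a1 by 1.39, while Twist2 fell by 0.70 and Thy1 by 0.40. Of the 13 tested endothelial markers, 3 were lower and 3 higher (23.1% each), and 7 were not called. Over all tested genes, 14.5% were lower and 16.9% higher. Cdh5 fell by 1.03 and Plvap rose by 0.44 while Kdr had a log2 fold change of 0.15 (edgeR adjusted P = 0.252). Egfl7, lower at -0.23, lost its call without normal glucose replicate 3 or any 1 high glucose sample (-0.26 to -0.23). Erg, called higher, had only 2 to 15 counts a sample. The part of these marker changes in the changes of Fos, Fosl2, Jun, Egr2 and Egr3 was not tested.

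Schwann cell markers bear on Egr2, since it is a Schwann cell gene. Of the 8 markers, 5 were lower (62.5%, against 14.5% of all tested genes) and 1 was higher (12.5%, against 16.9%). Their median log2 fold change was -0.35. Sox10 had 7.39, 8.38 and 9.01 normalized CPM in normal glucose against 6.23, 6.07 and 7.03 in high glucose, and the log2 fold change was -0.36 (edgeR adjusted P = 0.0183). Sox10 was not called without normal glucose replicate 3 or high glucose replicate 1 or 2 (-0.35 to -0.30). Erbb3, also lower, lost its call without normal glucose replicate 3 (-0.35). Foxd3, lower as well, lost its call without replicate 2 or 3 of either group (-0.36 to -0.30). Without normal glucose replicate 3, Sox10, Erbb3 and Foxd3 were therefore all uncalled. S100b fell by 0.90, and Ngfr, the most abundant of the list, rose by 0.42. The list held 0.0163%, 0.0165% and 0.0178% of all counts in normal glucose against 0.0191%, 0.0191% and 0.0187% in high glucose. Its part in the fall of Egr2 was not tested. Of the other marker lists, mural cell markers (9 of 10 tested) gave 4 lower and 2 higher genes. Leukocyte and macrophage markers (4 of 11) gave 2 lower and 1 higher. Keratinocyte markers (4 of 8) and melanocyte markers (1 of 5) each gave 0 lower and 1 higher. The most abundant genes of these lists were Pdgfrb, Cd14, Trp63 and Pmel, in that order of lists. The higher keratinocyte gene was Krt5, with 2 counts in each normal glucose sample against 12 to 23 in high glucose. Trp63 was not called (0.14, edgeR adjusted P = 0.551). Cd3e, Cd8a, Tyr and Tyrp1 were at 0 in all 6 samples.

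For each member the 2 genes with the most similar normalized log2 CPM over the 6 samples were listed, among 10012 genes whose mean reached 3 on that scale. These are descriptions over 6 samples that fall into 2 groups. Fos was closest to Slc35d1 and 3110039I08Rik (Pearson r = 0.998 and 0.995), which fell by 0.30 and 1.01 on the log2 scale. Fosl2 was closest to Mical3 and Bcl6 (r of 0.999 or more), Jun to Nptxr and Cercam (0.999 and 0.998), Egr2 to H2-T10 and Kdelr3 (0.997 and 0.996) and Egr3 to Tpbg and Gm43737 (0.982 and 0.978). For the uncalled members the closest genes were Hgh1 and Gm45774 for Fosb, Rab3il1 and Tiam2 for Fosl1, Map3k10 and Lrrc14 for Junb, Tmem218 and Sh3bp5l for Jund, and Gm49322 and Ntng2 for Egr1, and none of these 10 genes was called.

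**Figure D5:**
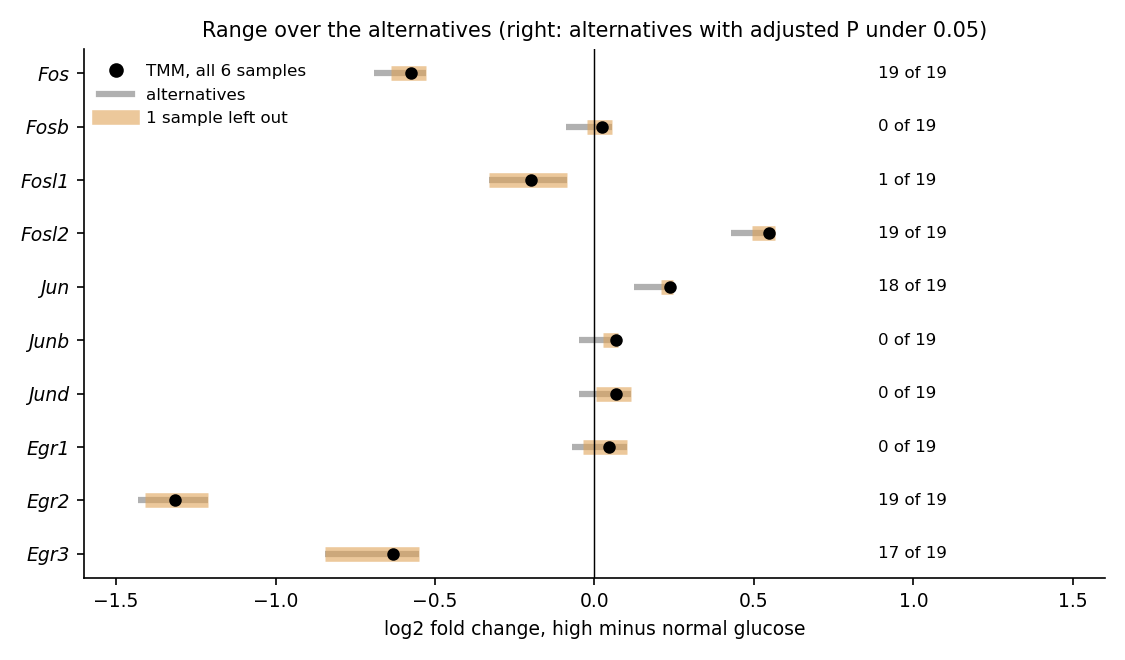
Range of each member's log2 fold change, high minus normal glucose (horizontal axis), over 19 alternative settings (grey) and over the 6 fits with 1 sample left out (orange), with the value from all 6 samples and TMM scaling as a black point. The numbers at the right count the alternatives with an adjusted P value under 0.05, and they are 19 of 19 for Fos, Fosl2 and Egr2, 18 for Jun, which misses under library size scaling, 17 for Egr3 and 1 for Fosl1; the values of Fosb, Junb, Jund and Egr1 fall on both sides of 0.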

How the data were processed

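RNA was measured in 6 samples, 3 in normal glucose and 3 in high glucose, grouped by the sample labels. The authors deposited raw counts per gene, made with Trimmomatic (trimming), HISAT2 (alignment to GRCm38) and StringTie (counting); tool versions are not given in the sources used here. Among low counts, the value 2 (9280 entries) was almost as common as 1 (10842 entries), so both reads of a pair may have been counted, and halved counts were tried. Column names were matched to the labels by glucose level and replicate number.

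The counts were analysed with edgeR 4.0.16 in R 4.3.3, using filterByExpr (minimum count 10, minimum total 15), TMM scaling and the quasi-likelihood test over 19015 genes, adjusting P values by Benjamini-Hochberg and calling genes below 0.05. Standard errors follow from the test statistic. The biological coefficient of variation was 8.44%. No 2 replicates of a group matched within sampling noise (lowest chi-square per degree of freedom 9.64). Single values were compared by exact two-sided permutation tests. Gene models came from GENCODE M21, which held 55227 of the 55487 identifiers, and promoters from RefSeq. The fit was tested on simulated data. The floor of 3 counts covers counting error only, while the standard errors include the spread between replicates.

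The members and gene lists were chosen with earlier results of these data known. Named genes are the 10 members, the 3 called genes with the lowest and the 3 with the highest log2 fold change in each list (log2 CPM averaging 1 or more), the most abundant gene of each marker list, Egr4, Nab1, Nab2, Srf, Elk1, Elk3, Elk4, Atf3, Pecam1, Cdh5, Kdr and Sox10, genes that overlap a member, and the 2 genes most like each member. Endothelial markers with too few counts, markers at 0, Batf2, Spred2, Top2a, Erg and Krt5 were named after their values were seen. A few genes that fall under these rules are left out of the text. Alternatives were other scalings, filters and thresholds, DESeq2 1.42.0, the likelihood ratio test, halved counts, the replicate block, a fit free of GC and length trends (mgcv 1.9.3), and each sample left out.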

Additional observations from a re-analysis of the deposited data

How the results depend on the processing

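Fos, Fosl2 and Egr2 kept their direction and an adjusted P value under 0.05 in all 19 alternatives, and no named gene that was called changed direction in any of them. With library size scaling, 4884 genes were called lower and 1819 higher, and 1 member, Fosl2, was higher, Jun being short of the threshold. At an adjusted P value under 0.01 these numbers were 1671 and 1946, and Egr3 was not called. Requiring an absolute log2 fold change of 1 or more, which removes small changes by construction, kept 542 lower and 395 higher genes, 1 lower member (Egr2) and 0 higher, and 0 lower and 0 higher other immediate early genes. The remaining scalings, filters and tests, among them DESeq2 and halved counts, changed no call of a member. With 1 sample left out, and so fewer samples in the fit, from 1988 to 3149 genes were higher and from 2048 to 3065 lower, while 2 to 4 members were lower and 2 higher.

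In the labels both groups have replicates 1 to 3. Correlating the deviations of samples with the same number gave -0.025, 0.0038 and 0.013, so no shared deviation was seen. Such values cannot show that these samples come from different isolations, and the labels do not say whether the numbers pair. With the replicate block, 2418 genes were lower and 2909 higher, 3 members were lower and 2 higher, and the log2 fold changes of Fos, Fosl2, Jun, Egr2 and Egr3 were -0.58, 0.55, 0.24, -1.31 and -0.65. Among the other named genes the block took the calls of Elk1, Srf, Egfl7 and Foxd3. Among the members, Egr3 had the fewest counts, 125 to 289 a sample.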
